A study of Mus musculus with 6 samples.

Results

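Guanylate-binding proteins (GBPs) are encoded by the mouse Gbp genes, and the 8 genes Gbp2, Gbp3, Gbp4, Gbp5, Gbp6, Gbp7, Gbp8 and Gbp9 were taken by symbol from the 52550 Ensembl gene identifiers of each library. All 8 were present with 1 row each. They were measured by RNA sequencing in epithelial cells of the colon from male Apc Min/+ mice, which carry a truncating mutation in 1 copy of the tumour suppressor gene Apc and develop intestinal adenomas. The atorvastatin group (3 libraries) received this statin, an inhibitor of cholesterol synthesis, at 20 mg/kg by oral gavage on alternate days. The control group (3 libraries) received 2% Tween 80 in the same way. The mice were adults of 5 to 6 weeks, every animal of both groups carried the Apc Min allele, and no group without the mutation was analysed here. The labels number the libraries but do not say whether each came from its own animal, so the spread between libraries may be partly technical. The family was chosen by its lower FPKM with atorvastatin in these same libraries. Fold changes, adjusted p-values and counts of the 8 genes therefore describe the libraries and are not independent evidence of a change.

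GBPs are large GTPases of the dynamin superfamily whose genes are switched on by interferons, most strongly by interferon gamma. The proteins assemble on vacuoles that hold intracellular pathogens and on the surface of bacteria, help to break them open, and promote inflammasome signalling through caspases. In the intestine, epithelial cells and immune cells both make them when interferon is present. Interferon acts on these genes through 2 short DNA elements: the interferon-stimulated response element (ISRE), bound by interferon regulatory factors, and the gamma-activated site (GAS), which responds to interferon gamma.

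The upstream sequences of the chromosome 3 genes are shown because they hold these elements. RefSeq promoter windows (GRCm38.p6) existed in the table used for 4 of the 8 genes, Gbp2, Gbp3, Gbp5 and Gbp7; Gbp4, Gbp6, Gbp8 and Gbp9 had no entry. The 250 bases before the transcription start were searched on both strands for the ISRE core (the letters TTTC, any 2 bases, then TTTC again) and for the GAS motif TTCNNNGAA, which reads the same on both strands. Capitals mark the matches. Bases more than 30 into an exon of the GENCODE annotation are not printed, which shortens the windows of Gbp2 and Gbp5 to 219 and 246 bases. Gbp2b, which lies between Gbp3 and Gbp2, is added for comparison. All 5 lie on the plus strand and are written 5′ to 3′.
Gbp2, chr3:142620413-142620631: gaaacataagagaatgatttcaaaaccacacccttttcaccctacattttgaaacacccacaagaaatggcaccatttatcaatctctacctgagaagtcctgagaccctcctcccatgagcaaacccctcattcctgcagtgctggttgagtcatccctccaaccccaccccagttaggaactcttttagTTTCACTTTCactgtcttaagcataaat
Gbp3, chr3:142559794-142560043: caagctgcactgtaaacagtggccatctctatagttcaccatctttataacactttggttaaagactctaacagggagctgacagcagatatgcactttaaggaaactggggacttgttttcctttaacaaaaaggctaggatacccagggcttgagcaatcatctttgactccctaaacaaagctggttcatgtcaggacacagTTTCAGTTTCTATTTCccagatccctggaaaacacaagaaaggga
Gbp5, chr3:142496684-142496929: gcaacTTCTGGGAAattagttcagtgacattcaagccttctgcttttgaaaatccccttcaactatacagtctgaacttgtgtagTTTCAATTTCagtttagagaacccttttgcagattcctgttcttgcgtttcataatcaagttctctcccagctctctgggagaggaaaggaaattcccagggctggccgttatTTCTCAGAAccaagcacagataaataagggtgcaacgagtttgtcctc
Gbp7, chr3:142530086-142530335: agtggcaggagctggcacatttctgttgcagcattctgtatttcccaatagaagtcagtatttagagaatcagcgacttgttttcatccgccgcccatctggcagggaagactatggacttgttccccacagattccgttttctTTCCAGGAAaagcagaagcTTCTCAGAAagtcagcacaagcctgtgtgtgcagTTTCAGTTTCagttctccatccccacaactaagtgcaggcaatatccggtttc
Gbp2b, chr3:142594597-142594846: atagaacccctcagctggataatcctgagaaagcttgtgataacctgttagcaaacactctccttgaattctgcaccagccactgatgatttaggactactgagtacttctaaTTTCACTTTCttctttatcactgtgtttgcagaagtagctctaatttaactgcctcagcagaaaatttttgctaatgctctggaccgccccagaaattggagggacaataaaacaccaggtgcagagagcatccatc

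Each of the 4 member windows held an ISRE core. Counted from the RefSeq start, it began at position -59 in Gbp2, -53 in Gbp7 and -165 in Gbp5. Gbp3 held 2 overlapping copies that began at -45 and -39. The core of Gbp2 falls in the first exon of the longer GENCODE transcript, which begins at 142620602. The second start that RefSeq lists for Gbp3 had neither motif. GAS matches were found in Gbp5, beginning at -245 and -52, and in Gbp7, beginning at -106 and -87. Gbp2b held an ISRE core at -137 and no GAS match. Of 32851 RefSeq windows of the same length, 2.98% held an ISRE core, 7.02% a GAS match and 0.332% both. A match describes the letters in the window and does not show that a factor binds there.

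**Figure D1:**
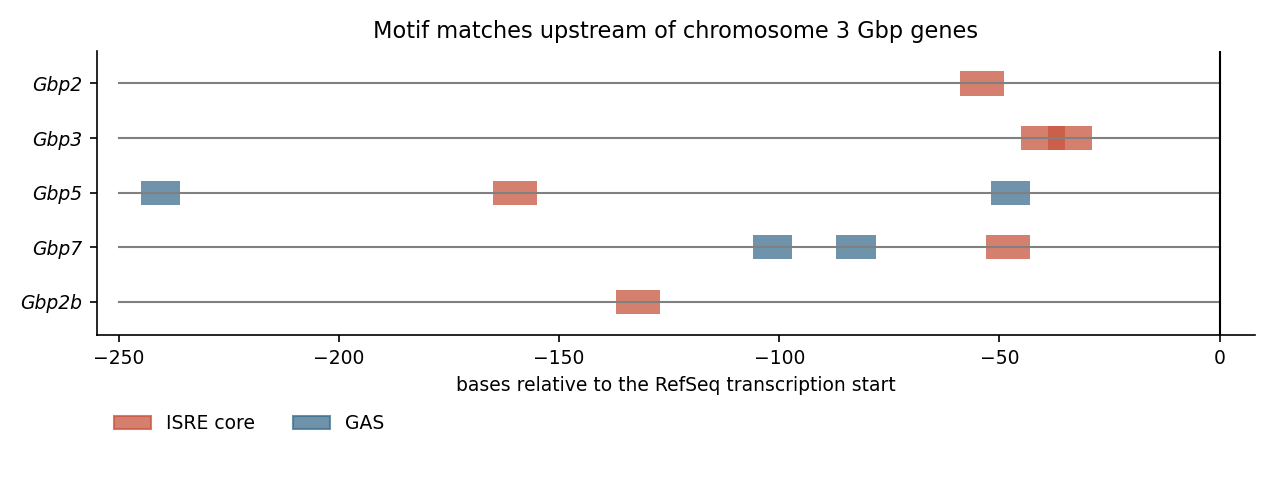
Positions of ISRE core matches (red) and GAS matches (blue) in the 250 bases before the RefSeq transcription start of 5 Gbp genes on chromosome 3; the x axis gives bases relative to that start. Every gene has at least 1 ISRE core, and only Gbp5 and Gbp7 also have GAS matches, 2 each.

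The genes fall into 2 clusters in GENCODE M21 (GRCm38). On the plus strand of chromosome 3 lie Gbp5 (142493978 to 142522344), Gbp7 (142530342 to 142550149), Gbp3 (142560026 to 142573209), Gbp2b (142594847 to 142619179) and Gbp2 (142620602 to 142638008). On the minus strand of chromosome 5 the annotated spans of Gbp8 (105014150 to 105139540), Gbp9 (105077630 to 105139539) and Gbp4 (105115767 to 105139586) overlap. Gbp6 (105270702 to 105293698) lies inside the span of Gm43302 (105214907 to 105293695), which also covers Gbp10. How the authors assigned reads that fit several genes is not given in the sources used here, so the sharing of sequence bears on each level below.

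Most members were distinct in sequence, and Gbp6 was the exception. Of the distinct 50-base stretches in the annotated transcripts of Gbp6, 70.7% also occurred in a transcript of another gene, 65.0% in Gm43302 and 46.0% in Gbp10. The share was 18.1% for Gbp8, 12.7% for Gbp7, 8.05% for Gbp9, 7.70% for Gbp4, 3.75% for Gbp3, 2.03% for Gbp2 and 1.44% for Gbp5. For Gbp7, 10.5% was shared with the processed pseudogene Gm43802, and all of the share of Gbp3 was with Gbp7. By this measure Gbp6 had the largest shared part, while Gbp2, Gbp3 and Gbp5 had little shared sequence.

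**Figure D2:**
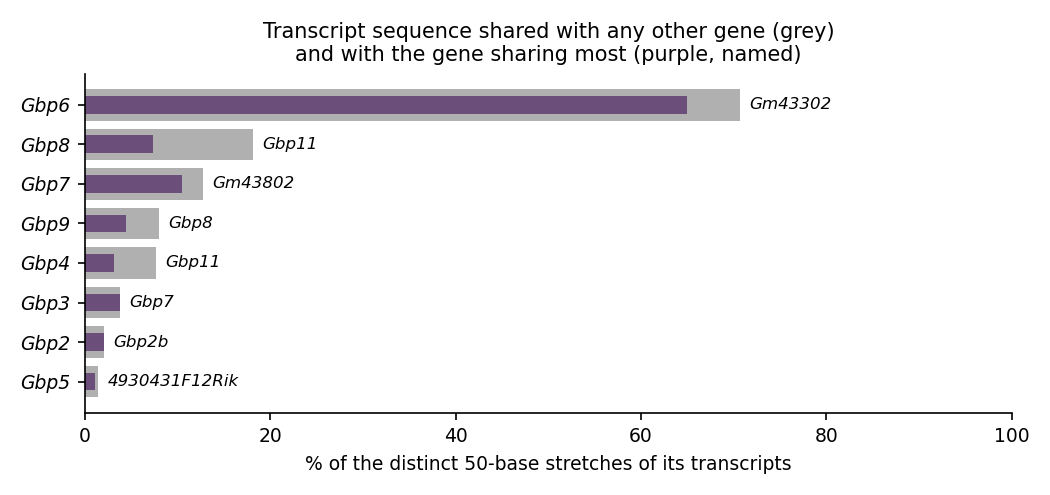
Share of the distinct 50-base stretches of each gene's annotated transcripts that also occur in a transcript of any other gene (grey bars) and in the single gene that shares most (purple bars, gene named); the x axis is percent. Gbp6 stands at 70.7%, and the other 7 genes at 18.1% or less.

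All 8 genes were lower in every atorvastatin library than in any control library. The mean level with atorvastatin was between 33.3% (Gbp3) and 59.4% (Gbp8) of the control mean, with a median of 44.2% over the 8 genes and of 101.6% over the 19823 genes above 0 in all 6 libraries. Among those 19823 genes, 6.19% were lower without overlap between the groups. The sum over the 8 genes was 6.64, 8.43 and 8.28 FPKM (fragments scaled to gene length and to the number of mapped fragments) with atorvastatin, against 20.2, 16.4 and 14.99 FPKM in control. In these bulk libraries, fewer cells that express a gene and less RNA per cell cannot be told apart.

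**Figure D3:**
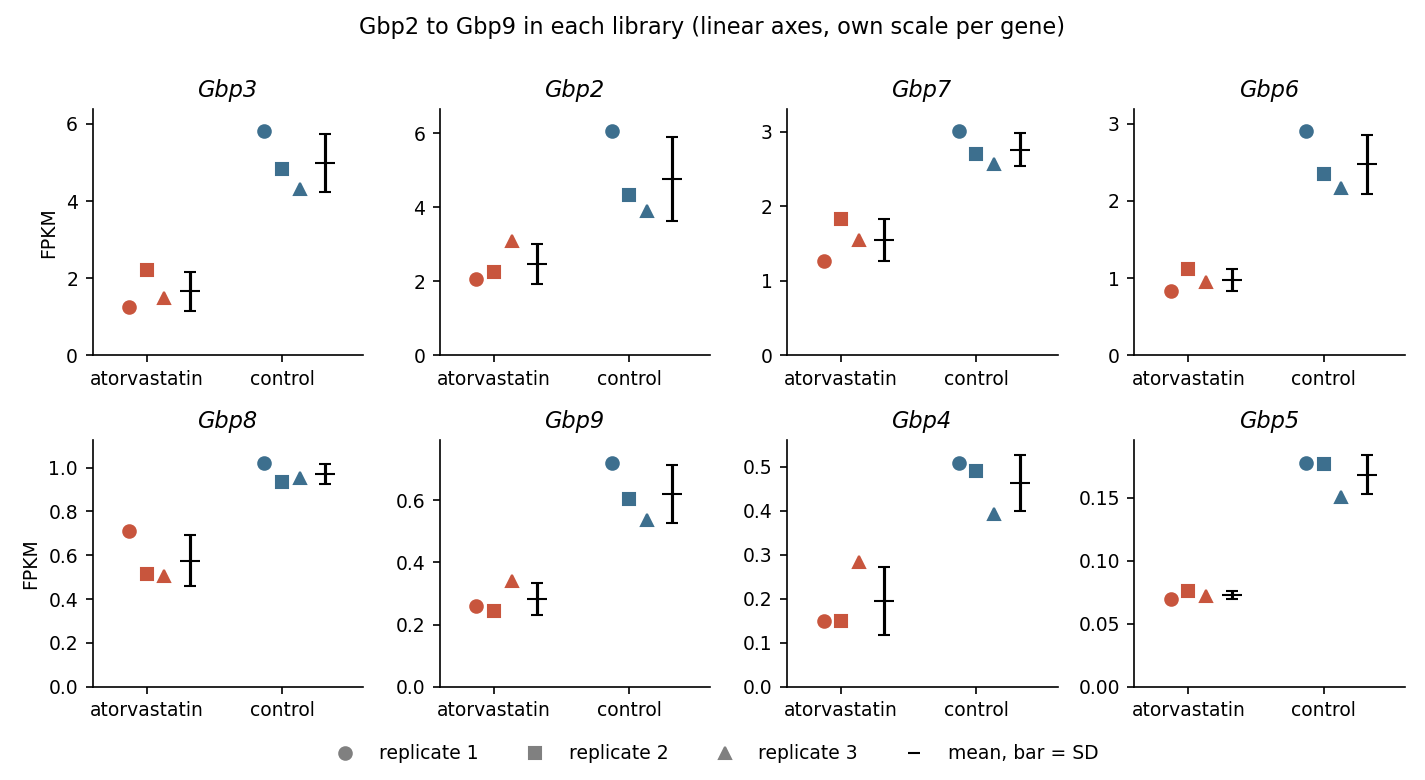
FPKM of each Gbp gene in the 3 atorvastatin libraries (red, left) and the 3 control libraries (blue, right), on linear axes scaled per gene; marker shapes give the replicate number, and black bars the mean and SD of 3 libraries. In every panel the highest atorvastatin library lies below the lowest control library, and control replicate 1 is the highest library.

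Gbp3 and Gbp2, both of chromosome 3, were the most abundant. In the mouse both proteins gather on the vacuole of Toxoplasma gondii, and mice lacking Gbp2 control that parasite poorly. Gbp3 (ENSMUSG00000028268) was at 1.26, 2.23 and 1.495 FPKM with atorvastatin, against 5.80, 4.84 and 4.31 FPKM in control. The lowest control library was 1.93 times the highest atorvastatin library. Gbp3 fell by 1.18 ± 0.15 (SE) on the scale of log2(FPKM + 1), which understates the change of genes with low values (limma adjusted p = 0.0314, n = 3 each).

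Gbp2 (ENSMUSG00000028270) was at 2.08, 2.26 and 3.08 FPKM with atorvastatin, against 6.05, 4.34 and 3.91 FPKM in control. The groups were separate but closer than for Gbp3, the lowest control library being 1.27 times the highest atorvastatin library. The log2 fold change of Gbp2 was -0.72 ± 0.16 (SE), and it did not pass the threshold (limma adjusted p = 0.139).

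Gbp7, a protein that acts in vesicle-based killing of bacteria in the mouse, and Gbp6, of chromosome 5 and also found on the Toxoplasma vacuole, had the next lower levels. Gbp7 (ENSMUSG00000040253) was at 1.27, 1.83 and 1.55 FPKM with atorvastatin, against 3.01, 2.71 and 2.57 FPKM in control. Its log2 fold change of -0.565 ± 0.096 (SE) did not pass (limma adjusted p = 0.072). Gbp6 (ENSMUSG00000104713) was at 0.840, 1.12 and 0.953 FPKM with atorvastatin, against 2.90, 2.35 and 2.17 FPKM in control. It fell by 0.81 ± 0.10 (SE) on the log2 scale (limma adjusted p = 0.029). Gm43302, which shares most of the Gbp6 sequence, stood at 0.447, 0.544 and 0.452 FPKM with atorvastatin, against 1.12, 1.44 and 1.04 FPKM in control (limma adjusted p = 0.065). Gm43302 reached 1 FPKM in 3 control libraries and 0 atorvastatin libraries, so it was tested because of its control levels. Reads of Gbp6 and Gm43302 cannot be told apart with certainty.

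The test was limited to genes that reached 1 FPKM in 3 or more libraries, which 4 of the 8 did (Gbp2, Gbp3, Gbp6 and Gbp7). Gbp2, Gbp3 and Gbp7 were above 1 FPKM in all 6 libraries, whereas Gbp6 reached it in 3 control libraries and 1 atorvastatin library, so its entry depended on the group in which it was high. Of the 4, Gbp3 and Gbp6 passed, where 0.404% of all 11644 tested genes passed and 0.249% passed as lower with atorvastatin. All 4 had an unadjusted p under 0.05, where 4.27% of tested genes were lower at that level. Since the genes were chosen on this contrast, nothing is read from these shares. Neither passed without control replicate 1 (limma adjusted p = 0.124 for Gbp3 and 0.081 for Gbp6), without control replicate 2 (0.102 and 0.0786), without atorvastatin replicate 1 (0.0884 and 0.0995) or without atorvastatin replicate 3 (0.131 and 0.123). Both passed without control replicate 3 and without atorvastatin replicate 2. Over 13 alternatives the adjusted p ran from 0.0172 to 0.203 for Gbp3 and from 0.0199 to 0.166 for Gbp6, and both passed in 7.

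Gbp8, Gbp9, Gbp4 and Gbp5 lay below the filter and have no test of their own in this fit. Gbp8 (ENSMUSG00000034438) was at 0.711, 0.514 and 0.503 FPKM with atorvastatin, against 1.02, 0.935 and 0.953 FPKM in control. Gbp9 (ENSMUSG00000029298), another protein seen on the Toxoplasma vacuole in mouse cells, was at 0.261, 0.243 and 0.339 FPKM with atorvastatin, against 0.721, 0.604 and 0.536 FPKM in control. Gbp8 kept the highest share of its control level of the 8 genes, at 59.4%, and Gbp9 stood at 45.3%.

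Gbp4 (ENSMUSG00000079363) was at 0.150, 0.149 and 0.283 FPKM with atorvastatin, against 0.509, 0.489 and 0.392 FPKM in control. Gbp5 (ENSMUSG00000105504), which promotes NLRP3 inflammasome assembly, was the lowest, at 0.0696, 0.0761 and 0.0722 FPKM with atorvastatin, against 0.178, 0.177 and 0.150 FPKM in control. Both groups of Gbp5 were tight, yet at such levels a value rests on few reads, and the number of reads is unknown. With no filter all 8 genes entered a fit of 28981 genes, in which none passed, with limma adjusted p of 0.166 (Gbp6) to 0.421 (Gbp5), and all 8 had an unadjusted p under 0.05. In that fit 0% of genes passed as lower, and 3.28% were lower at an unadjusted p under 0.05; nothing is read from that difference, since the genes were chosen on this contrast.

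The order of the levels was similar in both groups. In control the order was Gbp3, Gbp2, Gbp7, Gbp6, Gbp8, Gbp9, Gbp4 and Gbp5, from a mean of 4.98 ± 0.76 FPKM for Gbp3 to 0.168 ± 0.016 FPKM for Gbp5 (SD, n = 3). The ranges of Gbp3 and Gbp2 overlapped, as did those of Gbp7 and Gbp6, and all other neighbours were separate. With atorvastatin Gbp2 stood first at 2.48 ± 0.54 FPKM and Gbp3 second at 1.66 ± 0.50 FPKM, the others keeping their places. There the ranges of Gbp2 and Gbp3, of Gbp3 and Gbp7, and of Gbp9 and Gbp4 overlapped.

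The make-up of the family sum shifted a little. Gbp3 made up 21.2 ± 4.6% of the sum with atorvastatin and 28.97 ± 0.41% in control, and Gbp6 12.5 ± 0.9% with atorvastatin and 14.4 ± 0.1% in control (SD, n = 3 each). Gbp7 went the other way, at 19.9 ± 1.6% with atorvastatin and 16.2 ± 1.2% in control. The groups did not overlap for these 3 shares and overlapped for the other 5. For FPKM itself, 6.19% of the 19823 genes above 0 in all 6 libraries were lower and 10.3% higher without overlap. The shares are parts of the same sum and so depend on one another, and nothing is read from their count. The chromosome 3 members together had 5.76 ± 0.94 FPKM with atorvastatin and 12.7 ± 2.1 FPKM in control, a ratio of 0.454, and the chromosome 5 members 2.02 ± 0.06 FPKM with atorvastatin and 4.53 ± 0.56 FPKM in control, a ratio of 0.447.

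The order of libraries within a group was shared by the members in control. Control replicate 1 was the highest control library for all 8 genes, whereas it was the highest for 37.7% of the tested genes, and control replicate 3 was the lowest for all but Gbp8, against 35.8% of the tested genes. With atorvastatin no library was highest for all 8. Replicate 2 was the highest for 4 genes (Gbp3, Gbp5, Gbp6 and Gbp7), replicate 3 for 3 (Gbp2, Gbp4 and Gbp9) and replicate 1 for Gbp8.

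The remaining Gbp genes were barely detected. Gbp10 was at 0.137, 0.165 and 0.146 FPKM with atorvastatin, against 0.253, 0.253 and 0.269 FPKM in control, and shares sequence with Gbp6 and Gm43302. Gbp11, a polymorphic pseudogene, was at 0.0402, 0.0200 and 0.0201 FPKM with atorvastatin, against 0.0203, 0 and 0.0089 FPKM in control, so its groups overlapped. Gbp2b was listed at 0 in all libraries but control replicate 2 (0.037 FPKM), although its neighbours Gbp3 and Gbp2 were the most abundant members. The pseudogene Gbp2-ps was listed at 0 in all 6.

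The interferon pathway upstream of the Gbp genes held genes that passed as lower. Most of its tested genes did not pass, as was so over all tested genes. Of 17 tested genes of the 19 on the list of interferon receptors and signalling, 2 passed as lower and none as higher. Over all tested genes 0.404% passed, and 0.249% passed as lower. The median log2 fold change was -0.05 over the list and 0.02 over all tested genes. Irf9, an interferon regulatory factor that binds the ISRE, was at 6.33, 7.57 and 6.80 FPKM with atorvastatin, against 10.4, 10.75 and 10.04 FPKM in control, and fell by 0.53 ± 0.07 (limma adjusted p = 0.0334). Every atorvastatin library of Irf9 lay below every control library. That was also so for Stat2, Irf1, Ifngr1, Jak1 and Il10rb, whereas the groups overlapped for most of the remaining genes of the list, Ifngr2 among them. Outside this list, Ifng, which was not tested, was lower without overlap, and the groups overlapped for Il18. Among all tested genes 6.05% were lower without overlap. The call of Irf9 held without atorvastatin replicate 2 and was lost without any other single library (limma adjusted p of 0.0579 to 0.153).

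Stat2, whose protein acts with IRF9 at the ISRE, averaged 7.36 ± 0.66 FPKM with atorvastatin and 11.2 ± 2.7 FPKM in control (SD, n = 3 each) and did not pass (limma adjusted p = 0.258). Irf1, an interferon-induced activator of ISRE genes, averaged 30.6 ± 0.7 FPKM with atorvastatin and 34.4 ± 3.2 FPKM in control (limma adjusted p = 0.441). The interferon gamma receptor genes Ifngr1 and Ifngr2 averaged 80.9 ± 0.9 and 30.8 ± 1.2 FPKM with atorvastatin, and 85.2 ± 1.7 and 31.9 ± 4.0 FPKM in control (limma adjusted p = 0.609 and 0.9). Ifng, which encodes the ligand, was at 0.265, 0.119 and 0.300 FPKM with atorvastatin, against 0.400, 0.360 and 0.449 FPKM in control. It lay below the filter. Il18, an epithelial cytokine that induces Ifng in lymphocytes, was the single tested gene of 9 on the list of the ligand and its inducers, at 61.5 ± 2.4 FPKM with atorvastatin and 59.1 ± 9.1 FPKM in control (limma adjusted p = 0.87).

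The immunity-related GTPases, which act with GBPs at pathogen vacuoles, were next in the comparison. Iigp1, Irgm2 and Igtp of the 7 listed passed as lower, where 0.249% of all tested genes did. Iigp1 reached 1 FPKM in 1 atorvastatin library, and Tgtp1 and Tgtp2 in none, so these 3 were tested because of their control levels, and no summary over the 7 is given. None of the 3 calls held without control replicate 1, with limma adjusted p of 0.0533 for Iigp1, 0.073 for Irgm2 and 0.118 for Igtp. Irgm2 and Igtp also lost the call without control replicate 2, atorvastatin replicate 1 or atorvastatin replicate 3 (limma adjusted p of 0.0623 to 0.131), and Igtp without control replicate 3 (0.06). Irgm2 averaged 6.57 ± 0.76 FPKM with atorvastatin and 12.8 ± 1.6 FPKM in control (limma adjusted p = 0.0265), and Irgm1, which steers these GTPases away from the cell's own membranes, 8.49 ± 1.41 FPKM with atorvastatin and 11.7 ± 2.3 FPKM in control (limma adjusted p = 0.374). Among 9 tested dynamin superfamily relatives on a list of 12, only the interferon-induced antiviral gene Mx1 passed, where 0.404% of all tested genes did. Mx1 averaged 1.82 ± 0.44 FPKM with atorvastatin and 4.49 ± 0.73 FPKM in control (limma adjusted p = 0.0477). The call of Mx1 held without atorvastatin replicate 2 and was lost without any other single library (limma adjusted p of 0.0562 to 0.171). Its paralogue Mx2 averaged 1.24 ± 0.49 FPKM with atorvastatin and 3.25 ± 0.77 FPKM in control (limma adjusted p = 0.112). Mx2 reached 1 FPKM in 3 control libraries and 1 atorvastatin library, so its entry depended on the group in which it was high. The list's median log2 fold change, Mx2 included, was -0.03.

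The inflammasome and autophagy lists gave no call, and 3 genes on the inflammasome list that lay below the filter had lower means with atorvastatin. None of 16 tested genes of the 19 on the inflammasome and pyroptosis list passed in limma's test, with a median log2 fold change of -0.06. Of the 16, 11 had a negative and 5 a positive log2 fold change. An unadjusted p under 0.05 was reached by 2, as by 12% of all tested genes. Gsdmc4 was the higher of these, at 679 ± 106 FPKM with atorvastatin and 512 ± 99 FPKM in control. Naip5 was lower, at 21.3 ± 1.1 FPKM with atorvastatin and 23.45 ± 0.39 FPKM in control. With 0.404% of all tested genes passing, a count of 0 in so short a list is near the overall share and is not a result about these genes; the same holds for the next lists. The 3 untested genes were Nlrp3, Il1b and Il1a, the inflammasome sensor and a pair of cytokines. Nlrp3 was at 0.0336, 0.0842 and 0.0658 FPKM with atorvastatin, against 0.232, 0.267 and 0.121 FPKM in control, with no overlap. Il1b averaged 0.506 ± 0.132 FPKM with atorvastatin and 1.44 ± 0.70 FPKM in control, and Il1a 0.118 ± 0.027 FPKM with atorvastatin and 0.358 ± 0.212 FPKM in control, both with overlap (SD, n = 3 each). Casp4, which encodes the caspase that senses cytosolic lipopolysaccharide, averaged 13.04 ± 1.18 FPKM with atorvastatin and 13.4 ± 1.7 FPKM in control. Gsdmd, the pore-forming protein that it cleaves, averaged 46.7 ± 2.2 FPKM with atorvastatin and 51.2 ± 4.2 FPKM in control. None of the 14 genes of ATG8 conjugation, the autophagy machinery that guides GBPs to vacuoles, passed, with a median of 0 and 2 genes at an unadjusted p under 0.05 (12% of all tested genes). These were Map1lc3a, at 8.42 ± 0.20 FPKM with atorvastatin and 10.03 ± 0.39 FPKM in control, and Tax1bp1, at 55.3 ± 1.5 FPKM with atorvastatin and 46.0 ± 5.0 FPKM in control.

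Mouse Gbp2 and Gbp5 end in a CaaX box, a signal for attachment of an isoprenoid lipid to the protein. None of the 8 tested genes of CaaX prenylation and processing passed in limma's test, with a median log2 fold change of 0.02 and 2 genes at an unadjusted p under 0.05, where 12% of all tested genes were. Fdps, which makes the isoprenoid precursor farnesyl diphosphate, averaged 29.1 ± 1.7 FPKM with atorvastatin and 20.8 ± 1.5 FPKM in control (limma adjusted p = 0.0557). Fntb, the beta subunit of farnesyltransferase, averaged 4.18 ± 0.30 FPKM with atorvastatin and 3.49 ± 0.14 FPKM in control (limma adjusted p = 0.27). Pggt1b, the beta subunit of geranylgeranyl transferase, averaged 13.2 ± 0.4 FPKM with atorvastatin and 13.1 ± 0.3 FPKM in control (limma adjusted p = 0.938).

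**Figure D4:**
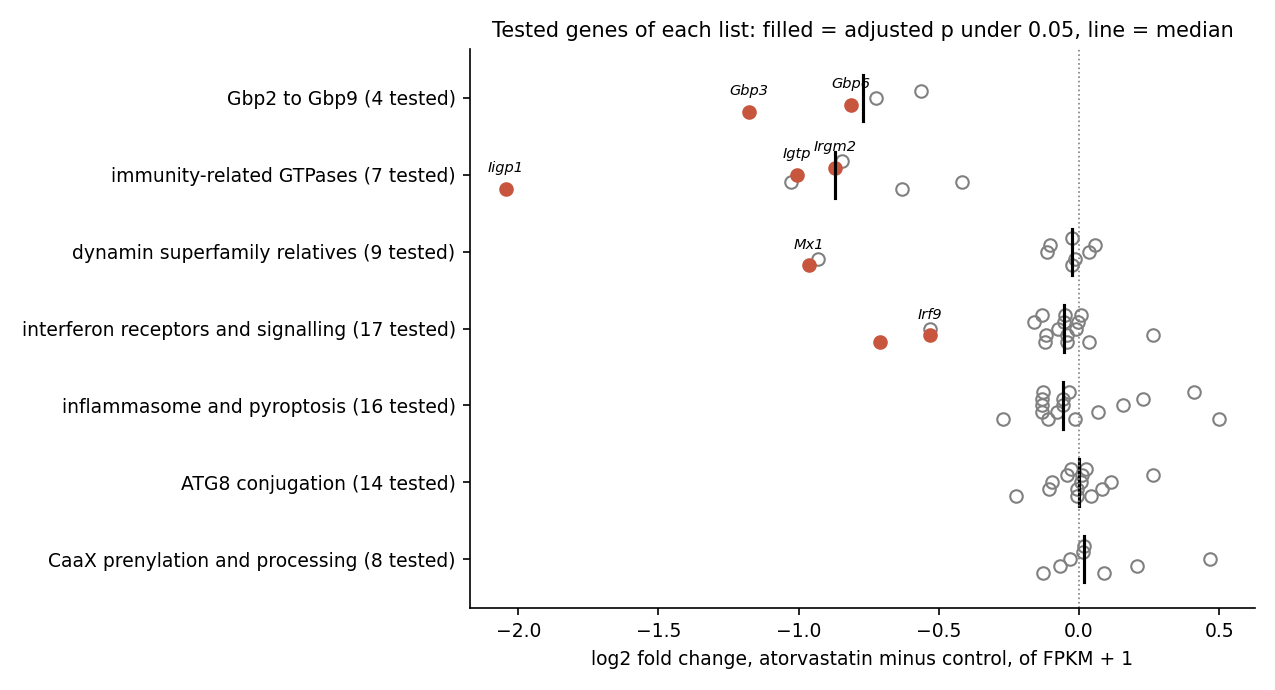
Log2 fold change (atorvastatin minus control, of FPKM + 1) of each tested gene, by list; filled red points had a limma adjusted p under 0.05, named where the text describes them, and black lines are list medians. Gbp6, Iigp1, Tgtp1, Tgtp2 and Mx2 were tested because of their control levels, so the lists are not compared with one another. The medians of the 5 lists other than the Gbp genes and the immunity-related GTPases lie between -0.06 and 0.02.

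The samples carried the markers of epithelium, with markers of immune cells at low levels and, for several immune types, with lower sums with atorvastatin. The 13 epithelial markers, all detected, summed to 9370 to 10760 FPKM with atorvastatin and 9748 to 10740 FPKM in control, and Epcam averaged 510 ± 29 FPKM with atorvastatin and 555 ± 18 FPKM in control. That sum follows the most abundant markers. Among the others, Lgr5, a stem cell marker, was higher without overlap. Lgr5 was at 1.08 ± 0.07 FPKM with atorvastatin and 0.674 ± 0.042 FPKM in control (limma adjusted p = 0.142). It reached 1 FPKM in 3 atorvastatin libraries and 0 control libraries, so its entry depended on the group in which it was high. Chga, an enteroendocrine marker, was also higher without overlap, at 18.4 ± 2.0 FPKM with atorvastatin and 13.2 ± 1.2 FPKM in control (limma adjusted p = 0.112). Krt8 was lower without overlap. The T and NK cell markers (17 of 18 in the files, none at 0 throughout) summed to 16.1 to 22.2 FPKM with atorvastatin and 21.9 to 40.1 FPKM in control, and 7 of them were lower without overlap. Of the 19823 genes above 0 in all libraries, 6.19% were lower and 10.3% higher without overlap. Mzb1, Adgre1, Cpa3 and Fcer1a, counted as lower below, lie outside that set, being at 0 in some or all atorvastatin libraries. Ptprc, the pan-leukocyte gene, was at 0.688, 0.824 and 1.17 FPKM with atorvastatin, against 1.81, 1.98 and 1.15 FPKM in control. The 9 B and plasma cell markers summed to 3.24 to 4.21 FPKM with atorvastatin and 6.04 to 12.85 FPKM in control (5 lower without overlap), the 12 macrophage and dendritic cell markers to 3.89 to 4.96 FPKM with atorvastatin and 5.085 to 10.6 FPKM in control (5 lower and Mrc1 higher), and the 7 mast cell markers to 8.36 to 10.2 FPKM with atorvastatin and 13.2 to 25.2 FPKM in control (4 lower). Most of the mast cell sum with atorvastatin was Kit, at 7.16 ± 0.87 FPKM with atorvastatin and 7.145 ± 0.213 FPKM in control. Mcpt1 averaged 1.38 ± 0.08 FPKM with atorvastatin and 8.65 ± 3.94 FPKM in control. Mcpt2 averaged 0.664 ± 0.182 FPKM with atorvastatin and 4.43 ± 2.48 FPKM in control.

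The 7 neutrophil markers summed to 16.4 to 24.0 FPKM with atorvastatin and 19.5 to 40.5 FPKM in control, nearly all of it Ly6g, with Elane at 0. The 7 endothelial markers summed to at most 0.581 FPKM with atorvastatin and 0.570 FPKM in control, with Kdr at 0, and the 10 fibroblast and muscle markers to 1.83 to 2.22 FPKM with atorvastatin and 1.51 to 3.09 FPKM in control. The mitochondrial ribosomal RNAs mt-Rnr1 and mt-Rnr2 were at 1160 to 1526 and 1294 to 1722 FPKM with atorvastatin, and at 1828 to 2631 and 2054 to 2536 FPKM in control. The part of immune cells and of the ribosomal RNA difference in the Gbp levels was not tested.

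**Figure D5:**
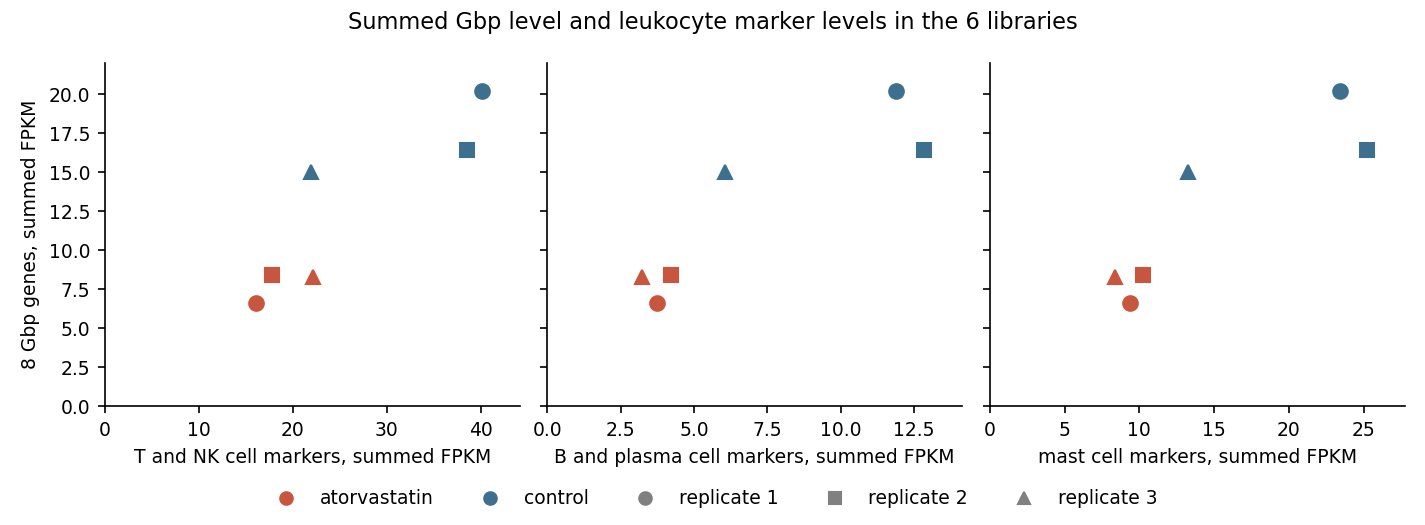
Summed FPKM of the 8 Gbp genes (y axis) against summed marker FPKM of 3 immune groups (x axes: lymphocytes of the T and NK lineages, B lineage, mast cells) in the 3 atorvastatin libraries (red) and 3 control libraries (blue); shapes give replicate numbers. The Gbp sums do not overlap between the groups, and the marker sums overlap for the T and NK lineages and not for the B lineage or mast cells.

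The 5 genes outside the family whose profile was most like the mean profile of the 4 tested members over the 6 libraries were Slfn2, Gm4070, Psmb10, Nlrc5 and Rxra, with Pearson r of 0.998, 0.994, 0.994, 0.992 and 0.991. The 6 points form 2 groups, and r includes the difference between them. For deviations from the group means r was 0.994, 0.935, 0.943, 0.959 and 0.986 in the same order. These genes were selected as the highest of 11644, and r is given as a description. Slfn2, a Schlafen gene of interferon responses, was at 1.32, 2.15 and 1.97 FPKM with atorvastatin, against 9.14, 6.55 and 6.17 FPKM in control. Nlrc5, the transactivator of MHC class I genes, was at 0.664, 0.907 and 0.906 FPKM with atorvastatin, against 2.53, 2.30 and 2.05 FPKM in control. Nlrc5 lay below 1 FPKM in every atorvastatin library, so it was a candidate because of its control levels. The entry of Gbp6 into the mean profile also depended on its control levels. Psmb10, an immunoproteasome subunit, was at 27.9, 28.6 and 28.8 FPKM with atorvastatin, against 34.0, 32.2 and 31.7 FPKM in control. Rxra, which encodes the retinoid X receptor alpha, differed less, at 13.3, 14.1 and 14.0 FPKM with atorvastatin, against 15.7, 15.1 and 14.9 FPKM in control.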

How the data were processed

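RNA sequencing of colon epithelial cells gave 6 libraries, 3 per group, and the authors deposited 1 FPKM value per gene and library for 52550 Ensembl identifiers. The submitters' processing notes name FastQC 0.11.2, Bowtie and the mm10 build; the quantifier, annotation, strand setting and handling of multi-mapped reads are not given in the sources used here. Library totals ran from 407857 to 430832 FPKM. Read depth is unknown, values went down to 1e-06 FPKM, and they could not be turned back into reads, so neither a count test nor a counting interval was used. Symbols were found for 99.72% of identifiers, and coordinates came from GENCODE M21 (GRCm38, which mm10 denotes).

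The 11644 genes that reached 1 FPKM in 3 or more libraries were fitted as log2(FPKM + 1) with limma 3.58.1 in R 4.3.3 (trended, robust empirical Bayes, two-sided, Benjamini-Hochberg over all tested genes, adjusted p under 0.05), after the script was tested on simulated data. The genes and lists were chosen with earlier results of these data known. Named genes are the Gbp genes, selected list members by smallest p together with a fixed set, and the 5 most similar profiles; some genes so selected are given by counts only. Gm43302 was added after the annotation was examined. Same-numbered libraries did not deviate together (r of -0.139, -0.106 and 0.014), so they were not treated as pairs. The 14 alternatives changed the pseudocount, filter, scaling, replicate block or libraries used. A gene that passed on the list of interferon receptors and signalling is counted but not reported here.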

Additional observations from a re-analysis of the deposited data

How the results depend on the processing

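All 8 Gbp genes kept a negative log2 fold change in each alternative that gave one. Under quantile, median-ratio, upper-quartile and equal-total scaling and a pseudocount of 0.1, Gbp3 and Gbp6 passed and Gbp2 and Gbp7 did not. With no filter none of the 8 passed, and 2 genes passed in all (both higher). All 8 had an unadjusted p under 0.05 there, as did 3.28% of all genes as lower. The median log2 fold change of the tested Gbp genes was -0.45 with no filter, against -0.77 for the 4 genes of the reported fit, as 4 genes of low level entered. The 4 genes of the reported fit include Gbp6, whose entry depended on its control levels, so medians over them only describe the libraries. At a pseudocount of 0.1 this median was -1.09, because the pseudocount shrinks low values less. A filter of 5 FPKM left no Gbp gene to test. With the replicate block, which the labels do not show to pair libraries, 1 gene passed over all genes (higher) and none of the 4 Gbp genes. All 4 had an unadjusted p under 0.05 in that fit, as did 3.45% of all genes as lower. Leaving out 1 library gave 2 to 67 passing genes in place of 47, among them 0 to 2 Gbp genes, with a median of -0.85 to -0.65 over the tested Gbp genes. The lower counts came without control replicate 1 (2 genes, both higher), without control replicate 2 (30), without atorvastatin replicate 1 (13) and without atorvastatin replicate 3 (17). In these 4 fits no Gbp gene passed, and all 4 tested had an unadjusted p under 0.05, as did 3.18% to 4.46% of all genes as lower; the cause was not tested. Depth is unknown, so the precision of Gbp4, Gbp5, Gbp8 and Gbp9, all near or below 1 FPKM, is known through the spread of 3 libraries alone. With no filter, with the replicate block and without control replicate 1, Iigp1, Irgm2, Igtp, Irf9 and Mx1 also did not pass, and Mx1 did not at a pseudocount of 0.1.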
